A study of Mus musculus with 36 samples.

Results

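The genes described here encode the RNA polymerases, Mediator and the general transcription factors, in mouse embryos taken at the 8-cell (8C) and 2-cell (2C) stages. They were chosen by symbol alone, as every entry of the table named Polr1, Polr2 or Polr3 with a subunit letter, Gtf2a, b, e, f or h, Taf or Med with a number, or Tbp. The rule found 97 of the 23845 symbols. They comprise 26 genes of core Mediator, 4 of its kinase module, 27 polymerase subunits, 19 TBP-associated factors (TAFs) of TFIID and SAGA, 4 TAFs of the polymerase I factor SL1, 3 members of the TBP family and 13 subunits of TFIIA, TFIIB, TFIIE, TFIIF and TFIIH. The last entry, Med9os, is an RNA from the strand opposite Med9 and no Mediator subunit.

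The study profiled RNA from pools of 4 to 5 embryos with the SMART-seq v4 kit and asked how LINE-1 elements act in early embryos. At 8C there were 7 libraries labelled VP64, 6 labelled Ctrl and 6 labelled NI. At 2C there were 6 libraries labelled KRAB, 7 labelled Ctrl and 4 labelled NI. VP64 is known as a transcription-activating domain and KRAB as a repressing one. The labels used here do not spell out NI and do not say what the Ctrl embryos received. They name no strain, batch or embryo sex, and they do not say that pools came from separate experiments, so p-values measure the spread between these pools.

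Transcription by RNA polymerase II starts when TFIID, made of TBP and its TAFs, settles on a promoter with TFIIA and TFIIB, which bring in the polymerase. TFIIE and TFIIH then open the DNA, and Mediator carries signals from activators to the polymerase. A detachable kinase module moderates Mediator. Polymerases I and III, which make ribosomal RNA and small RNAs such as tRNA, share several subunits with polymerase II. The growing mouse oocyte is known to use its own version of this machinery, in which TBPL2 works with TFIIA in place of TBP. The embryo inherits the oocyte's RNA and replaces it as its own genome is switched on, which in the mouse begins mainly at the 2-cell stage.

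Levels are given as CPM, the estimated read counts of a gene relative to the scaled total of its library. Library totals ran between 1103574 and 13583527 counts at 8C, and between 1043740 and 10035066 counts at 2C. The 97 genes took 0.833% to 1.48% of the counts at 8C and 1.02% to 2.16% at 2C. Maternal oocyte transcripts, a list of 12 genes, summed to between 50.1 and 793 CPM at 8C, against 5074 to 45710 CPM at 2C. No gene of that list was at 0 throughout a group. A list of 16 cumulus and granulosa cell markers summed to 15.6 to 406 CPM at 8C and to 17.9 to 418 CPM at 2C. Its markers at 0 in every library numbered 5 in VP64 8C, 11 in Ctrl 8C, 9 in NI 8C, 2 in KRAB 2C, 2 in Ctrl 2C and 3 in NI 2C, Amh among them at 2C in each group. The median correlation with the other libraries of the same group was 0.78 to 0.962 at 8C and 0.777 to 0.834 in KRAB 2C. It was 0.556 to 0.777 in Ctrl 2C and 0.65 to 0.734 in NI 2C, so the 2C controls were the least alike. Ctrl 2C replicate 6 had the lowest value and a total of 1043740 counts.

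The stage comparison asks how the machinery differed between 8C and 2C embryos, in NI and in Ctrl pools separately. Genes for TFIIH were among those higher at 8C. So were 4 of the 5 subunits shared by polymerases I, II and III in Ctrl, but only 1 of the 5 in NI. Genes for TFIIA, the Mediator kinase module and several TAFs were among those lower, the TAFs at a share near or below that of all genes. In NI embryos 18 of the 97 genes were higher at 8C and 17 were lower, at an adjusted p under 0.05 (edgeR's quasi-likelihood test with Benjamini-Hochberg adjustment over all 13158 genes tested). Of all those genes, 18.5% were higher and 31.4% were lower, 49.9% in either direction. In Ctrl embryos 20 were higher and 22 were lower, beside 22.5% and 39% of all genes, 61.5% in either direction. The members were thus called no more often than all genes, and their share of lower calls was below the background. Their median log2 fold change was 0.091 in NI, against -0.47 over all genes, and 0.17 in Ctrl, against -0.51. With the size factors of DESeq2 those medians were -0.18 against -0.72 in NI, and -0.0083 against -0.70 in Ctrl, so the sign of the members' median depended on the scaling. Of the TAFs of TFIID and SAGA, 31.6% were lower in NI and 26.3% in Ctrl, beside the 31.4% and 39% of all genes.

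The NI and Ctrl comparisons use different embryos at both stages. Called higher in both were Gtf2h2, Gtf2h4, Med6, Med8, Med19, Med20, Polr1b, Polr1c and Polr2e, 9 genes. Called lower in both were Gtf2a1, Gtf2a1l, Med13, Med13l, Med15, Med30, Taf3, Taf4a, Taf5, Taf7, Taf9b and Tbpl2, 12 genes. These 21 genes were 60% of the NI calls and 50% of the Ctrl calls, and no member was called in opposite directions. Over all genes the shared calls were 81.2% of the NI calls and 65.8% of the Ctrl calls. Of all genes tested, 13.8% were called higher in both treatments and 26.7% lower in both, against 9.28% and 12.4% of the members. The libraries of the stages did not overlap for 23 members in NI, where 33.4% of all genes were so separated, and for 9 in Ctrl, where 24.4% were. In bulk pools of embryos, fewer cells carrying an RNA and less of it per cell cannot be told apart, and scaled counts do not show the amount of RNA per embryo.

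**Figure D1:**
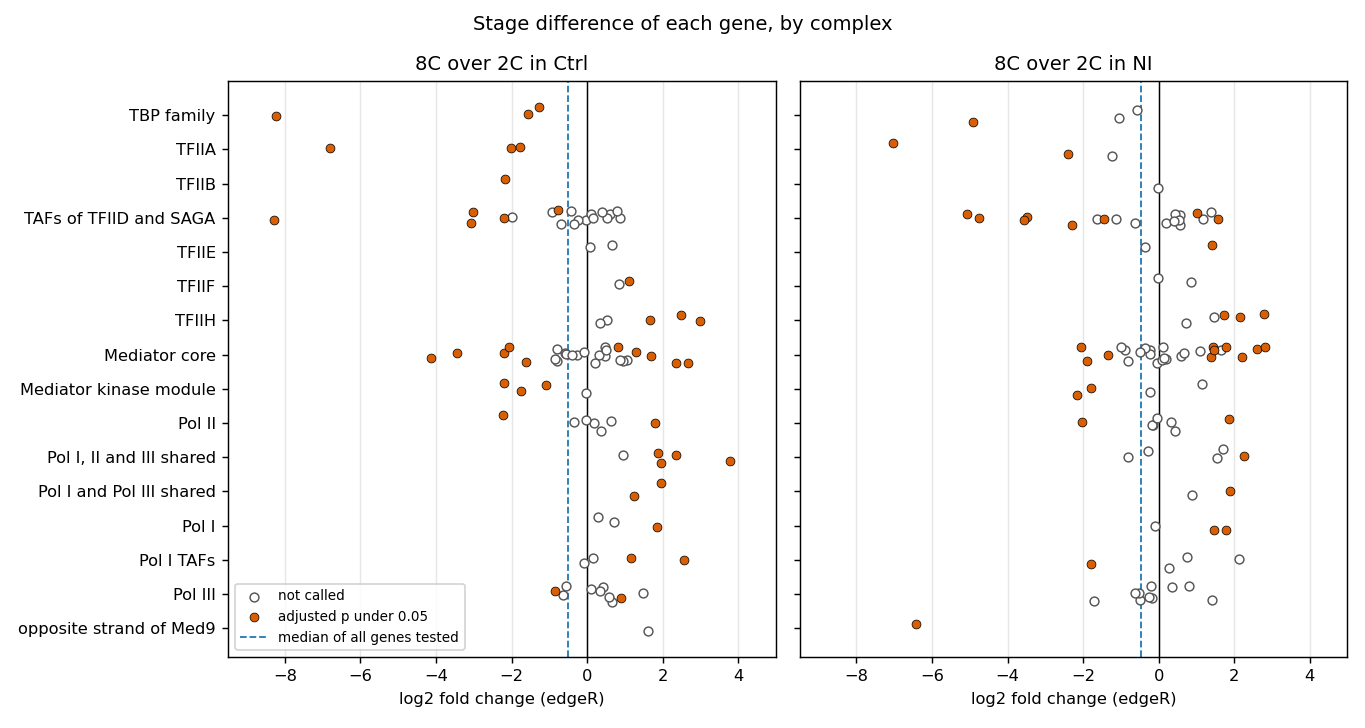
Log2 fold change at 8C over 2C for each of the 97 genes, by complex, in Ctrl embryos (left) and NI embryos (right). Each point is a gene, filled where it was called at an adjusted p under 0.05, and the dashed line is the median of all genes tested. TFIIH points called lie above 0 in both panels, and those of TFIIA and of the Mediator kinase module lie below.

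The TBP family places the polymerase on promoters, and 3 of its 3 genes were called lower at 8C in Ctrl embryos, against 1 in NI embryos. Of all genes tested, 39% were lower in Ctrl and 31.4% in NI. Tbp is the general factor and Tbpl2 the oocyte factor. Upstream sequences of both are shown because they differ in CpG content, with each CG in capitals, followed by those of Gtf2a1 and Gtf2h2, which went in opposite directions and hold the same ETS core, in capitals. Each runs from 250 bases before the transcription start to 50 bases after it (RefSeq, GRCm38.p6). They lie at chr17:15499638-15499937 on the plus strand for Tbp, chr2:24096546-24096845 on the minus strand for Tbpl2, chr12:91590438-91590737 on the minus strand for Gtf2a1 and chr13:100492345-100492644 on the minus strand for Gtf2h2.
Tbp: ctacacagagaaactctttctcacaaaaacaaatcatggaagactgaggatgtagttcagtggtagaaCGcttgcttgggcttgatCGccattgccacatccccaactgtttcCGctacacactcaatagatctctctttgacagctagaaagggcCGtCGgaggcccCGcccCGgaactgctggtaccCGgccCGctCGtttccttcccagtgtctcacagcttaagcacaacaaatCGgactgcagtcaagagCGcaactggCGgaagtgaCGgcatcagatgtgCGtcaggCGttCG
Tbpl2: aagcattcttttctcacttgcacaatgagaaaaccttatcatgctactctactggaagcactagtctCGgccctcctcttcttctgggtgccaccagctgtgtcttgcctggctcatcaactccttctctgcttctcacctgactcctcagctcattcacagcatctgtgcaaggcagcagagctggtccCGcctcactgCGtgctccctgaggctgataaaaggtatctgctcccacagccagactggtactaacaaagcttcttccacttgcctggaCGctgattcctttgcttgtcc
Gtf2a1: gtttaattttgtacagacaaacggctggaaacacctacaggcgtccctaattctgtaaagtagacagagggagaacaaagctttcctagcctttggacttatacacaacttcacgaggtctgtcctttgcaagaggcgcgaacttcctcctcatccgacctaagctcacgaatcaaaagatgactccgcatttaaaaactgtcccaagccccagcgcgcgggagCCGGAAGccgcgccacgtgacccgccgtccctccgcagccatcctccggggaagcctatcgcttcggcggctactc
Gtf2h2: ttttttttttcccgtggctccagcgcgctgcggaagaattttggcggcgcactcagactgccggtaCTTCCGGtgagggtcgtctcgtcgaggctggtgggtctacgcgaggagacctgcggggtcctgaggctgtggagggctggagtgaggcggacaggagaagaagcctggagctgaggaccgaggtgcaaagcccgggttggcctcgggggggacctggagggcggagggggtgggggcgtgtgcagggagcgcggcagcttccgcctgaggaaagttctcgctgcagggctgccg
The Tbp sequence held 17 CG pairs and the Tbpl2 sequence 4. The ETS core began 26 bases before the start of Gtf2a1 (position -26) and, on the reverse strand, at position -184 of Gtf2h2. For Gtf2h2 this position depends on the start used. GENCODE vM21 begins that gene at chr13:100492579, upstream of the RefSeq start and within the printed sequence. These sequences were picked after the expression values were known.

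Tbpl2 was listed at 0, 0 and 0 CPM (lowest, median and highest) in Ctrl 8C libraries, against 0, 11.6 and 16.8 CPM in Ctrl 2C libraries. It was at 0 CPM in most NI 8C libraries, with a highest value of 0.0682 CPM, against 4.31, 1.2, 1.44 and 0 CPM in NI 2C libraries. The 2C range reached 0 in both treatments, so the stages touched at 0. Over the Ctrl groups it had 0 counts at 8C and 417 at 2C, at least 76.5-fold lower when 3 counts over the group is taken as the floor (adjusted p = 3.527e-06, edgeR). In NI it had 1 count at 8C and 14 at 2C, a ratio of 35.1 with a 95% counting interval of 5.35 to 1486 (adjusted p = 0.001909). That NI call was lost when the shallow libraries, those under 2000000 counts, were left out (adjusted p = 0.05255), which leaves 2 NI 2C libraries.

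Tbp itself ran from 1.71 through a median of 52.5 to 83.9 CPM in Ctrl 8C, against 43.2, 162 and 193 CPM in Ctrl 2C. Every Ctrl 8C library lay below the Ctrl 2C median, with overlap at the edges. The log2 fold change was -1.56 ± 0.56 (SE; adjusted p = 0.01439). In NI it was 11.3, 61.7 and 86.2 CPM at 8C, against 15.4, 150.2, 31.6 and 229 CPM at 2C. Of the NI 2C libraries, 2 lay within the 8C range and 2 above it, and the difference of -1.04 ± 0.61 was not called (adjusted p = 0.1552). Tbpl1, a TBP-like factor of germ cells, was lower at 8C in Ctrl, at -1.27 ± 0.48 on the log2 scale (adjusted p = 0.02088), and this was not called without Ctrl 8C replicate 5 (0.0543) or replicate 6 (0.05032). In NI it was -0.57 ± 0.53, not called. Of the exonic bases of Tbp, 17.4% overlap Pdcd2 on the opposite strand, and the counting is not stated to use strand.

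TFIIA steadies TBP on DNA. Gtf2a1 encodes its large precursor, and Gtf2a1l is the germ cell version of that subunit. Gtf2a1 was at 82.7, 122 and 322 CPM in NI 8C, against 350.1, 1117, 494 and 1209 CPM in NI 2C. All NI 8C libraries lay below all NI 2C libraries, with a log2 fold change of -2.40 ± 0.53 (adjusted p = 0.0003064). Ctrl 8C libraries had 41.8, 117 and 238 CPM, against 93.3, 573 and 820.3 CPM in Ctrl 2C. Those ranges overlapped, though every 8C library was below the 2C median, and the log2 fold change was -2.01 ± 0.48 (adjusted p = 0.0004644).

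Gtf2a1l was at 0 CPM in every NI 8C and every Ctrl 8C library. It was at 2.46, 3.36, 7.91 and 1.98 CPM in NI 2C, and at 0.854, 3.38 and 4.94 CPM in Ctrl 2C. The stages did not overlap in either treatment. Gtf2a1l was thus at least 34.3-fold lower at 8C in NI (0 against 41 counts) and at least 27.2-fold lower in Ctrl (0 against 148 counts), with adjusted p of 2.132e-06 and 1.775e-06 (edgeR). The small subunit, Gtf2a2, was lower at 8C in Ctrl, at -1.78 ± 0.56 (adjusted p = 0.006369; 0.1019 without the shallow libraries), and stood at -1.24 ± 0.62 in NI, not called (adjusted p = 0.09).

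TFIIB has 1 gene, Gtf2b, which links TBP to polymerase II. The Ctrl values were 16.6, 32.9 and 91 CPM at 8C, against 32.4, 228 and 401 CPM at 2C, overlapping only at the low end of 2C, and its log2 fold change was -2.18 ± 0.58 (adjusted p = 0.001399). In NI it was at 22, 63.9 and 139.6 CPM at 8C, against 24.6, 90.2, 51.8 and 133 CPM at 2C. The NI stages covered nearly the same range, at -0.025 ± 0.63 (adjusted p = 0.9785).

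TFIIH melts the promoter and repairs damaged DNA. Of its 5 genes here, 3 were higher at 8C in NI (Gtf2h2, Gtf2h3, Gtf2h4), 3 in Ctrl (Gtf2h2, Gtf2h4, Gtf2h5) and none was lower. Of all genes, 18.5% were higher and 31.4% lower in NI, and 22.5% and 39% in Ctrl. Gtf2h2, a core subunit, was at 91.9, 151 and 265 CPM in NI 8C, against 3.69, 50.9, 1.44 and 86.5 CPM in NI 2C. The stages did not overlap, and the log2 fold change was 2.16 ± 0.69 (adjusted p = 0.008942). In Ctrl it was at 42.9, 162 and 208 CPM at 8C, against 0.981, 23.4 and 49.1 CPM at 2C, with a slight overlap and a log2 fold change of 2.48 ± 0.57 (adjusted p = 0.0002705).

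Gtf2h4, which anchors the helicase XPB, rose by 2.79 ± 0.70 on the log2 scale in NI (adjusted p = 0.001154) and by 1.67 ± 0.54 in Ctrl (adjusted p = 0.007618). Gtf2h5, the smallest subunit, was at 232, 423 and 1439 CPM in Ctrl 8C, against 7.08, 55.8 and 236 CPM in Ctrl 2C, a log2 fold change of 2.98 ± 0.68 (adjusted p = 0.0002531). In NI its 2C libraries were spread between 54.6 and 309 CPM and the difference of 1.46 ± 0.78 was not called (adjusted p = 0.1182). Without the shallow libraries, Gtf2h2 and Gtf2h3 lost their NI calls (adjusted p = 0.09147 and 0.187).

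TFIIE brings in TFIIH, and TFIIF escorts the polymerase. Gtf2e2 was higher at 8C in NI, by 1.41 ± 0.51 (adjusted p = 0.02148), and not called without NI 2C replicate 1 (0.0916), NI 2C replicate 3 (0.08911), NI 8C replicate 1 (0.06217) or the shallow libraries (0.28). Gtf2f1 was higher at 8C in Ctrl, by 1.12 ± 0.37 (adjusted p = 0.00898), with 155, 229 and 289.5 CPM at 8C, against 27.7, 70.0 and 214 CPM at 2C, a call lost when only the compared groups were fitted (0.06876). In NI its libraries did not overlap, at 193, 228 and 263 CPM at 8C, against 137, 115, 148 and 94.7 CPM at 2C, yet the difference of 0.86 ± 0.44 was not called (adjusted p = 0.1021). Gtf2e1 and Gtf2f2 were not called in either treatment.

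Of the 19 TAFs of TFIID and SAGA, 6 were lower and 2 higher at 8C in NI, and 5 were lower and none higher in Ctrl. Of all genes, 31.4% were lower and 18.5% higher in NI, and 39% and 22.5% in Ctrl, so lower calls were no more common among TAFs than would be usual. The 5 lower in both were Taf3, Taf4a, Taf5, Taf7 and Taf9b, 26.3% of these TAFs, beside 26.7% of all genes. Taf3 reads the promoter mark H3K4me3. It was at 22.7, 32.9 and 50.3 CPM in NI 8C, against 214, 215, 144 and 119 CPM in NI 2C, and at 18.1, 30.1 and 40.5 CPM in Ctrl 8C, against 146, 225 and 326 CPM in Ctrl 2C. No 8C library reached any 2C library of its treatment. The log2 fold changes were -2.29 ± 0.39 in NI (adjusted p = 8.351e-06) and -3.01 ± 0.37 in Ctrl (adjusted p = 1.203e-08).

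Taf4a, a scaffold subunit of TFIID, was at 1.61, 4.79 and 6.27 CPM in NI 8C, against 20.3, 45.8, 25.9 and 94.1 CPM in NI 2C. Ctrl 8C libraries had 2.29, 4.32 and 8.64 CPM, against 23.4, 34.5 and 64.5 CPM in Ctrl 2C. Both treatments were fully separated by stage. It fell by 3.48 ± 0.49 in NI (adjusted p = 4.572e-07) and by 3.07 ± 0.45 in Ctrl (adjusted p = 4.408e-07), on the log2 scale.

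Taf9b is a second copy of the histone-fold subunit Taf9. It was at 0, 1.26 and 3.15 CPM in NI 8C, against 6.77, 35.3, 42.4 and 98.5 CPM in NI 2C. The Ctrl values were 0, 0.488 and 2.91 CPM at 8C, against 11.8, 438 and 553 CPM at 2C. The stages did not overlap, but Ctrl 2C itself split, with 475, 438, 553 and 514 CPM in replicates 1, 3, 5 and 7 and 61.6, 47.4 and 11.8 CPM in replicates 2, 4 and 6. The log2 fold changes were -5.07 ± 0.92 in NI (adjusted p = 2.538e-05) and -8.28 ± 1.01 in Ctrl (adjusted p = 1.121e-08).

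Taf5, the WD-repeat subunit, was at 1.21, 4.06 and 6.45 CPM in NI 8C, against 27.7, 21.8, 97.8 and 44.7 CPM in NI 2C, without overlap and at -3.55 ± 0.64 (adjusted p = 1.977e-05). In Ctrl it was at 1.69, 5.75 and 30.9 CPM at 8C, against 20.9, 41.5 and 57.9 CPM at 2C, at -2.20 ± 0.56 (adjusted p = 0.0009625). The Ctrl overlap came from 1 library, Ctrl 8C replicate 6, which also had the highest maternal sum at 8C, 793 CPM. Without that library Taf5 in Ctrl was at -3.16 and still called (adjusted p = 9.116e-06). Taf7 was lower, at -1.45 ± 0.38 in NI (adjusted p = 0.001595) and -0.77 ± 0.33 in Ctrl (adjusted p = 0.0422). Without the shallow libraries neither was called, at -0.85 (0.1476) in NI and -0.31 (0.4792) in Ctrl. Taf7 in Ctrl was not called when Ctrl 2C replicate 6 was left out (0.1265), nor without Ctrl 8C replicate 1, 2, 4 or 5 (0.07242, 0.09325, 0.08134 and 0.1221). That Ctrl call was also lost with no low-count filter (0.1273) or only the compared groups fitted (0.07666).

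Other TAFs were called in NI and not in Ctrl, a difference between treatments that the interaction test described further on did not call. Taf7l, the germ cell relative of Taf7, was at 0, 0 and 0.794 CPM in NI 8C, against 10.46, 1.2, 2.16 and 5.12 CPM in NI 2C (adjusted p = 0.004854; 0.05025 without the shallow libraries). Ctrl 8C libraries had 0, 0.283 and 1.69 CPM, against 0, 0.532 and 9.82 CPM in Ctrl 2C (adjusted p = 0.1402). Taf8, needed to assemble TFIID, was higher by 1.57 ± 0.55 in NI (adjusted p = 0.01588), but not without NI 2C replicate 1 (0.05926), replicate 3 (0.07142) or the shallow libraries (0.1972). Taf11 was higher by 1.01 ± 0.40 (adjusted p = 0.03138), and leaving out any of NI 2C replicates 1 and 3 or NI 8C replicates 4, 5 and 6 took its adjusted p to 0.1186, 0.1267, 0.07731, 0.05283 and 0.06841, and leaving out the shallow libraries to 0.3469. Its call was also lost with DESeq2's size factors in edgeR (0.05893), no low-count filter (0.05165) or only the compared groups fitted (0.07929). Taf1, the largest TFIID subunit, was not called in NI (-0.62 ± 0.49) or in Ctrl (-0.028 ± 0.43).

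**Figure D2:**
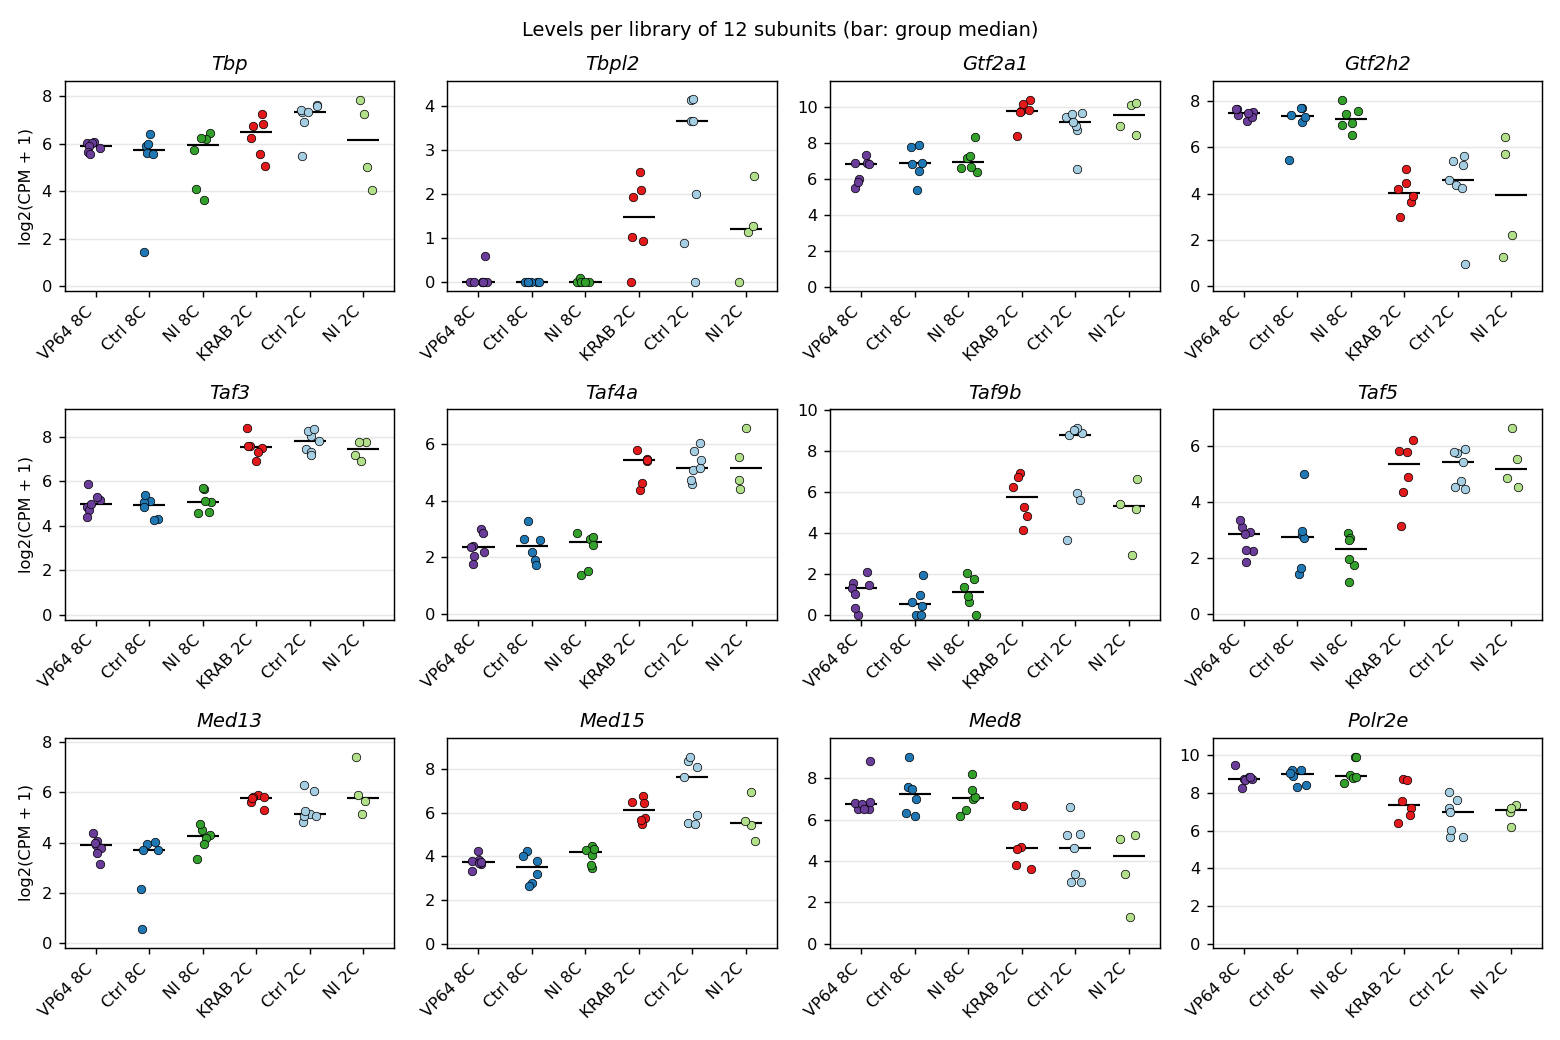
Levels of 12 genes, as log2 of CPM plus 1, in every library of VP64 8C, Ctrl 8C, NI 8C, KRAB 2C, Ctrl 2C and NI 2C, each point a library and each bar the group median; the genes were picked after their values were seen. Taf3 lies at 18.1 to 57.5 CPM in all 8C libraries and at 118 to 333 CPM in all 2C libraries, whatever the treatment.

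Core Mediator had 7 of 26 genes higher and 3 lower at 8C in NI, and 5 higher and 5 lower in Ctrl. These were 26.9% and 11.5% in NI, beside 18.5% and 31.4% of all genes. In Ctrl they were 19.2% in each direction, beside 22.5% higher and 39% lower of all genes. The head subunits Med6, Med8 and Med20 and the subunit Med19 were higher in both treatments. Med6 was not called in Ctrl with DESeq2 (0.07923), its size factors in edgeR (0.1167), no low-count filter (0.05484) or only the compared groups fitted (0.1074). Leaving out any 1 of Ctrl 2C replicates 1 to 7 or Ctrl 8C replicate 1 also ended that call (0.05002 to 0.1294). Without the shallow libraries neither Med6 (0.07035) nor Med19 (0.1518) was called in NI. Med19 in NI was also lost without NI 2C replicate 1 (0.05981) or NI 8C replicate 1 (0.0501). Med8 was at 70.1, 130.1 and 289 CPM in NI 8C, against 9.23, 32.9, 1.44 and 37.5 CPM in NI 2C, with no overlap (2.83 ± 0.82, adjusted p = 0.004442). The Ctrl values were 71.8, 150.4 and 524 CPM at 8C, against 6.85, 23.9 and 96.2 CPM at 2C, with a small overlap (2.66 ± 0.66, adjusted p = 0.0006528). Med20 rose by 2.61 ± 0.55 in NI (adjusted p = 0.0001668) and by 1.69 ± 0.43 in Ctrl (adjusted p = 0.000826). Med16, of the tail, rose by 2.34 ± 0.74 in Ctrl (adjusted p = 0.00599), with 4.29, 88.2 and 211 CPM in Ctrl 8C, against 8.17, 20.1 and 42.3 CPM in Ctrl 2C, so its lowest 8C library lay below every 2C library. It stood at -0.04 in NI, where NI 2C replicate 1 had 170.4 CPM and the other NI 2C libraries 12.5 to 26.6 CPM.

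Among the lower genes, Med15 is a tail subunit that activators bind. It was at 9.99, 17.3 and 21.3 CPM in NI 8C, against 41.8, 48.7, 122 and 24.6 CPM in NI 2C. In Ctrl it was at 5.14, 10.51 and 17.9 CPM at 8C, against 43.2, 197 and 377 CPM at 2C. The stages were separate in both treatments, at -1.89 ± 0.52 in NI (adjusted p = 0.002569) and -4.12 ± 0.52 in Ctrl (adjusted p = 2.151e-08). Without the shallow libraries Med15 in NI was at -1.21 and not called (0.09301).

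Med30, found in animal Mediator, fell by 2.06 ± 0.74 in NI (adjusted p = 0.01998) and by 3.45 ± 0.73 in Ctrl (adjusted p = 0.0001056). The NI call was lost without NI 2C replicate 3 (0.09567), NI 8C replicate 3 (0.05448) or the shallow libraries (0.1324), and without NI 8C replicate 6 the difference was -3.18. Med1, the subunit that nuclear receptors contact, was at 9.14, 31.8 and 72.2 CPM in Ctrl 8C, against 43.2, 188 and 266 CPM in Ctrl 2C (-2.19 ± 0.43, adjusted p = 4.295e-05). In NI it was at 26.3, 43.1 and 78.1 CPM at 8C, against 44.3, 66.9, 39.5 and 64.5 CPM at 2C, overlapping broadly (-0.23 ± 0.47, adjusted p = 0.7019).

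Further subunits were called in NI and not in Ctrl. Med24, of the tail, rose by 2.20 ± 0.68 (adjusted p = 0.007111), Med22, of the head, by 1.47 ± 0.53 (adjusted p = 0.02035), and Med17, a head scaffold, by 1.45 ± 0.55 (adjusted p = 0.02566). Without the shallow libraries Med24 was at 1.58 (0.1323) and Med17 at 0.91 (0.3279), neither called. Med17 was not called either without NI 2C replicate 1, 2 or 3 or NI 8C replicate 1, 2 or 3 (0.05039 to 0.09219), nor Med22 without NI 2C replicate 1, 2 or 4 (0.08344, 0.05911 and 0.09798). DESeq2 (0.05023) and its size factors in edgeR (0.07276) did not call Med22 either. Med14, the backbone, was at -1.33 ± 0.50 (adjusted p = 0.02645), and was not called without NI 2C replicate 4 (0.2079) or without NI 8C replicate 3, 5 or 6 (0.07273, 0.05419 and 0.05061). The Med14 call was also lost with no low-count filter (0.05957) or only the compared groups fitted (0.07389).

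The kinase module holds Med12, Med13, their relatives Med12l and Med13l, and the kinase and cyclin, whose symbols the rule did not take. Med13, which ties the module to core Mediator, was at 9.14, 18 and 25.3 CPM in NI 8C, against 33.8, 49.9, 58.2 and 171 CPM in NI 2C. Ctrl 8C libraries had 0.459, 12 and 15.4 CPM, against 27.1, 34.2 and 78.3 CPM in Ctrl 2C. The stages did not overlap in either treatment, at -2.15 ± 0.52 (adjusted p = 0.0007637) and -2.21 ± 0.48 (adjusted p = 0.0001508).

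Med13l was lower too, at -1.80 ± 0.45 in NI (adjusted p = 0.001048) and -1.08 ± 0.40 in Ctrl (adjusted p = 0.0176). Its Ctrl call was lost without Ctrl 8C replicate 5 (0.05875). Without the shallow libraries it was called neither in NI (-0.71, 0.3469) nor in Ctrl (0.08681). Med12, which activates the kinase, was lower in Ctrl (-1.75 ± 0.63, adjusted p = 0.01625) at means under 10 CPM and not called in NI (-0.23 ± 0.73). Med12l was not called in either.

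The 5 subunits shared by polymerases I, II and III are encoded by Polr2e, Polr2f, Polr2h, Polr2k and Polr2l. Polr2e was at 361, 471 and 953 CPM in NI 8C, against 126, 161, 72.6 and 144 CPM in NI 2C. The Ctrl values were 316, 499 and 584 CPM at 8C, against 49.4, 127 and 264 CPM at 2C. Neither treatment showed overlap, with log2 fold changes of 2.26 ± 0.53 (adjusted p = 0.0006039) and 1.89 ± 0.43 (adjusted p = 0.0002387).

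Polr2h, Polr2k and Polr2l were called higher in Ctrl and not in NI. Polr2k was at 132, 256.45 and 1539 CPM in Ctrl 8C, against 3.71, 29 and 119.7 CPM in Ctrl 2C, without overlap (3.77 ± 0.82, adjusted p = 0.0001389). In NI it was at 117, 198 and 1864 CPM at 8C, against 374, 46.5, 51 and 168 CPM at 2C, overlapping (1.71 ± 0.92, adjusted p = 0.1194). Polr2l was at 744, 1203 and 3342 CPM in Ctrl 8C, against 59.6, 134 and 1187 CPM in Ctrl 2C (2.36 ± 0.66, adjusted p = 0.002311), while the NI 2C libraries spread over 3869, 339, 1302 and 158 CPM and gave -0.29 ± 0.74 (adjusted p = 0.7668). Of the sequence words of Polr2k and of Polr2l, 27.3% also occur in other genes, so their counts may be shared.

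Among the 7 polymerase II subunits, the largest, Polr2a, carries the C-terminal domain and the active site. It was at 9.47, 14.1 and 26.9 CPM in NI 8C, against 20.3, 10.8, 23 and 14.9 CPM in NI 2C, and at 1.84, 12.1 and 37.4 CPM in Ctrl 8C, against 0, 14.5 and 20.6 CPM in Ctrl 2C. The stages overlapped fully, at -0.14 ± 0.67 in NI and 0.17 ± 0.58 in Ctrl, not called. Per kilobase of exon it had the lowest level of the 7 in NI, 2.30 ± 0.888 CPM per kb at 8C and 2.56 ± 0.812 CPM per kb at 2C (SD, n = 6 and 4), and Polr2j the highest, 313 ± 169 and 1289 ± 1135 CPM per kb.

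Polr2c, which pairs with Polr2j in the assembly core, was at 227, 375 and 602 CPM in Ctrl 8C, against 476, 2062 and 3517 CPM in Ctrl 2C (-2.24 ± 0.45, adjusted p = 6.09e-05). In NI it was at 382, 432 and 594 CPM at 8C, against 183, 701, 766 and 475 CPM at 2C, not called (-0.18 ± 0.49). Polr2b, the second largest subunit, was higher in NI (1.87 ± 0.65, adjusted p = 0.01582), but not without NI 2C replicate 3 (0.05476), NI 8C replicate 3 (0.08403) or the shallow libraries (0.1337). Polr2j was lower in NI (-2.04 ± 0.65, adjusted p = 0.009259), and without NI 2C replicate 1 this was -1.42 and not called (0.08401). Without the shallow libraries the Polr2j difference in NI was -0.029.

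Polr2i was higher in Ctrl (1.79 ± 0.61, adjusted p = 0.01123), but without Ctrl 8C replicate 6 it was 0.99 and not called (0.1452). Of its exonic bases, 34.1% overlap Tbcb on the opposite strand.

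For polymerase I, Polr1b, its second subunit, was higher at 8C in both treatments, by 1.48 ± 0.60 in NI (adjusted p = 0.03755) and 1.85 ± 0.50 in Ctrl (adjusted p = 0.001517). Leaving out NI 2C replicate 2, 3 or 4 or NI 8C replicate 1, 2 or 3 ended the NI call (0.119, 0.1034, 0.1185, 0.07685, 0.05306 and 0.1866), the last of these at 0.89, and so did leaving out the shallow libraries (0.08071). DESeq2 (0.06602), its size factors in edgeR (0.08533) and fitting only the compared groups (0.052) did not call Polr1b in NI either. Polr1c, a subunit of polymerases I and III, was at 289, 550.0 and 653 CPM in NI 8C, against 50.5, 266, 37.4 and 199 CPM in NI 2C, and at 322, 522 and 866 CPM in Ctrl 8C, against 5.99, 89.6 and 338 CPM in Ctrl 2C. It rose by 1.89 ± 0.73 in NI (adjusted p = 0.03004), a call lost without NI 2C replicate 1 (0.09538) or 3 (0.1029), NI 8C replicate 1 (0.05255) or the shallow libraries (0.2455), and by 1.96 ± 0.60 in Ctrl (adjusted p = 0.004839). Polr1a, the catalytic subunit, was called in NI and not in Ctrl (1.79 ± 0.58, adjusted p = 0.0103), and not without NI 2C replicate 4 (0.05302), without the shallow libraries (0.07718) or without NI 8C replicate 3, where it was 1.06 (0.08762).

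The SL1 gene Taf1d was lower in NI, at 58.9, 102 and 135 CPM at 8C, against 461, 189, 376 and 326 CPM at 2C, without overlap (-1.78 ± 0.47, adjusted p = 0.001997). In Ctrl it was at 62.4, 92.6 and 202 CPM at 8C, against 21.4, 69.5 and 250.2 CPM at 2C (0.16 ± 0.41, adjusted p = 0.7559). Taf1c rose in Ctrl by 2.57 ± 0.84 (adjusted p = 0.00839). Taf1b, the TFIIB-like subunit, was at 1.16 ± 0.47 in Ctrl (adjusted p = 0.03135), and this was not called when Ctrl 8C replicate 3 or any of Ctrl 2C replicates 1, 3, 5 and 7 was left out (0.06286, 0.1073, 0.08523, 0.1117 and 0.1072). The Taf1b call was also lost when only the compared groups were fitted (0.1142). Polr1d, shared by polymerases I and III, was at 158, 391 and 476 CPM in Ctrl 8C, against 71, 134 and 288 CPM in Ctrl 2C (1.24 ± 0.42, adjusted p = 0.01137), and at 0.90 ± 0.50 in NI, not called.

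Polymerase III had none of its 10 genes called in NI and 2 in Ctrl. Of all genes, 49.9% were called in NI and 61.5% in Ctrl. The largest subunit of polymerase III, Polr3a, was at -0.85 ± 0.37 in Ctrl (adjusted p = 0.04516), and this was not called when Ctrl 2C replicate 2 was left out (0.06188), nor without Ctrl 8C replicate 1, 2, 4, 5 or 6 (0.1211, 0.06716, 0.05357, 0.08436 and 0.07389), nor without the shallow libraries (0.09793). The call was also lost with no low-count filter (0.1099) or only the compared groups fitted (0.07645). Polr3g, the version of a polymerase III subunit that stem cells favour over Polr3gl, was at 0.89 ± 0.40 (adjusted p = 0.04866). It was not called without Ctrl 2C replicate 1, 3, 4, 5 or 7 (0.1655, 0.08033, 0.1126, 0.1036 and 0.1347) or Ctrl 8C replicate 3, 5 or 6 (0.05229, 0.1025 and 0.08046). DESeq2 (0.06885), its size factors in edgeR (0.08895), no low-count filter (0.05747) and fitting only the compared groups (0.1481) did not call Polr3g either. Polr3gl was at 0.614, 5.36 and 7.09 CPM in NI 8C, against 32, 4.32, 18 and 2.48 CPM in NI 2C, overlapping (-1.71 ± 0.76, adjusted p = 0.0581). With DESeq2 it was called, at -2.07 (0.01738).

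Several members come in pairs of related genes, and the log2 ratio within each library, with 1 CPM added to each gene, compares a pair without its total. A ratio of 0 is not equal abundance, since gene lengths differ. Of 11 pairs in 2 treatments, 22 tests in all, 5 were called by an exact 2-sided permutation test with Benjamini-Hochberg adjustment. Taf4b, the gonadal relative of Taf4a, stood at 2.21 ± 0.63 over Taf4a in NI 8C, against -0.045 ± 0.31 in NI 2C (SD, n = 6 and 4), and at 2.62 ± 0.99 in Ctrl 8C, against -0.26 ± 1.41 in Ctrl 2C (SD, n = 6 and 7; exact adjusted p = 0.02095 for each). Taf4b itself was not called by edgeR in either treatment, and DESeq2 called it in NI, at -1.31 (0.04544).

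The Taf9b to Taf9 ratio was -8.24 ± 1.03 in NI 8C, against -3.34 ± 1.23 in NI 2C, and -8.68 ± 0.60 in Ctrl 8C, against -1.67 ± 2.54 in Ctrl 2C (exact adjusted p = 0.02095 for each). Of the exonic bases of Taf9, 56.5% overlap Ak6, so its level is uncertain. Taf9b was near 0 CPM at 8C, so the size of its ratio to Taf9 there depends on the added 1 CPM. Taf5l, the SAGA version of Taf5, was at 2.55 ± 0.94 over Taf5 in NI 8C, against -1.002 ± 1.95 in NI 2C (exact adjusted p = 0.02095). In Ctrl it was at 1.87 ± 1.54 at 8C, against -0.62 ± 1.61 at 2C (exact adjusted p = 0.07483). The other pairs, Tbpl1 to Tbp, Polr3gl to Polr3g, Med12l to Med12, Med13l to Med13, Taf6l to Taf6, Tbpl2 to Tbp, Taf7l to Taf7 and Gtf2a1l to Gtf2a1, were not called in either treatment. Tbpl2, Taf7l and Gtf2a1l were at or near 0 CPM at 8C, where the added 1 CPM sets their side of the ratio, so for those 3 pairs the test does not bear on the balance of the pair. Taf6l, the SAGA version of Taf6, stood at -0.57 ± 0.43 over Taf6 in NI 8C, against -2.07 ± 1.19 in NI 2C (exact adjusted p = 0.07483). The smallest p these designs allow is 0.00476 in NI and 0.000583 in Ctrl. With 1 NI 2C library left out the smallest p is 0.0119, which for the 5 called tests gives an adjusted p of 0.05238, the value all 3 NI pairs then had, so those settings say nothing about their stability. Leaving out NI 8C replicate 1, 2 or 3 also ended the 3 NI calls, at adjusted p of 0.0582 to 0.06984, and leaving out replicate 4, 5 or 6 did not (0.03492). With any 1 NI library left out the differences were at least 2.10 for Taf4b, at most -4.29 for Taf9b and at least 2.59 for Taf5l.

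**Figure D3:**
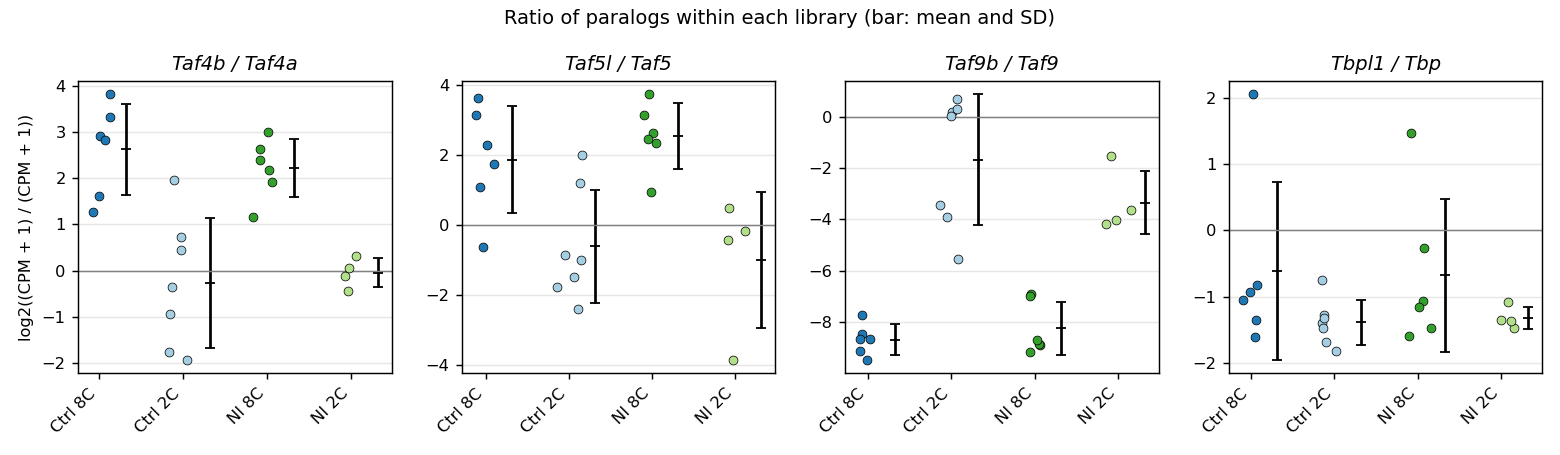
Log2 ratio of CPM plus 1 within each library for 4 pairs of related genes, in Ctrl 8C, Ctrl 2C, NI 8C and NI 2C; points are libraries and bars the mean with SD. The Taf9b to Taf9 ratio averages -8.68 and -8.24 at 8C, against -1.67 and -3.34 at 2C. Taf9b was near 0 CPM at 8C, so the size of its ratio there depends on the added 1 CPM.

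Upstream sequences of 300 bases were available for 82 of the 97 genes. The ETS core CCGGAAG, searched on both strands, was in 27 of them (32.9%), against 9.12% of 27025 promoters of the same length, and the GC box GGGCGG in 63.4% against 35.9%. Where a gene had several listed starts, only the first listed was counted, for the members and for the background. A motif at another start, such as the ETS core of Med10 or Taf11, was left out. A further 3 motifs, also searched on both strands, were closer to the background: TATAAA in 14.6% against 14.2%, CCAAT in 31.7% against 37.9%, and the YY1 core motif in 1.22% against 0.699%. The median number of CG pairs was 22 against 7, and the median GC content 58.8% against 52.7%. The ETS core occurred in 9 of 25 genes called higher in either treatment, in 8 of 23 called lower and in 10 of 34 called in neither. The motifs were chosen with the stage results known, and a match describes letters and not a bound site.

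Lists of neighbouring factors, chosen in the same way, showed calls in both directions. Beside them, 18.5% of all genes were higher and 31.4% lower at 8C in NI, and 22.5% and 39% in Ctrl. Of 35 genes for further subunits of these complexes or for factors that work with them, 4 were higher and 6 lower at 8C in NI, and 7 and 7 in Ctrl. Crcp, a polymerase III subunit, rose by 2.20 ± 0.50 and 2.38 ± 0.41 (NI, then Ctrl), and Dr1, a repressor of TBP, fell by 2.68 ± 0.69 and 2.13 ± 0.63. Of 36 pausing and elongation factors, 5 were higher and 8 lower in NI, and 8 and 8 in Ctrl. Mllt3, a super elongation complex subunit, averaged 2.72 CPM in NI 8C, against 168 CPM in NI 2C, and 2.41 CPM in Ctrl 8C, against 204 CPM in Ctrl 2C (log2 fold changes -6.00 ± 0.62 and -6.54 ± 0.61). Leo1, of the PAF complex, rose by 2.69 ± 0.55 and 3.17 ± 0.45, and Ell3, an elongation factor, by 3.91 ± 0.64 and 2.04 ± 0.46.

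Of 23 assembly factors and phosphatases of the polymerase tail, 2 were higher and 5 lower in NI, and 6 and 7 in Ctrl. The shares of all genes are again 18.5% and 31.4% in NI and 22.5% and 39% in Ctrl. The chaperone Ruvbl2 rose by 3.62 ± 0.51 and 2.28 ± 0.39, and the phosphatase gene Ctdspl fell by 4.98 ± 0.70 and 4.22 ± 0.65. The GTPases that help import polymerase II went apart, Gpn3 rising by 2.31 ± 0.80 and 2.40 ± 0.65 and Gpn2 falling by 1.27 ± 0.52 and 3.46 ± 0.51. SAGA subunits without a Taf symbol were called 2 higher and 2 lower of 14 in NI and 3 and 3 in Ctrl, and Integrator 2 higher of 14 in NI and 1 in Ctrl, with none lower. Eny2, of the deubiquitinating module of SAGA, averaged 121 CPM in NI 8C, against 759 CPM in NI 2C, and 167 CPM in Ctrl 8C, against 493.4 CPM in Ctrl 2C.

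Whether the stage difference itself differed between Ctrl and NI was tested as an interaction. No member was called, and 0% of all genes were. At an unadjusted p under 0.05 there were 17 members, beside 20.4% of all genes. DESeq2 called 4 members, beside 5.86% of all genes, namely Med1, Med15 and Polr2c with a lower and Taf1d with a higher stage difference in Ctrl. Without Ctrl 2C replicate 6 edgeR called 8, beside 8.36% of all genes, and those 8 held the same 4. Med15 gave -2.23 ± 0.71 (adjusted p = 0.1014) with all libraries and -2.40 (0.02494) without that library. Without Ctrl 2C replicate 2 or 4, 1 member was called, Med9os, in each case (0.04919 and 0.04989). That opposite-strand RNA was at 0, 0 and 2.29 CPM in Ctrl 8C, against 0, 0 and 0.309 CPM in Ctrl 2C, and at 0 CPM in every NI 8C library, against 7.38, 0, 2.88 and 0.33 CPM in NI 2C. It was at least 15.1-fold lower at 8C in NI (0 against 18 counts), a bound that covers counting error only. Of those 18 counts, 12 were in NI 2C replicate 1 and 4 in replicate 3, both shallow libraries. Med9os was called lower in NI by edgeR, but not with the shallow libraries left out (adjusted p = 0.1934).

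At 2C, the comparison of KRAB with Ctrl asks how embryos labelled KRAB differed from those labelled Ctrl. No member of 96 tested was called by edgeR, and 0% of all 11799 genes were. At an unadjusted p under 0.05 there were 10 members, beside 15.6% of all genes. DESeq2 called Med17, beside 1.7% of all genes. Med17 was at 7.51, 22.5 and 38.7 CPM in KRAB 2C, against 28.2, 90.6 and 135 CPM in Ctrl 2C, overlapping at the edges (-1.61 ± 0.47, adjusted p = 0.2221 with edgeR and 0.04624 with DESeq2). In NI 2C it was at 12.3, 17.3, 11.5 and 46.7 CPM, so the Ctrl libraries were the high ones.

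Taf9b was at 16.7, 55.7 and 122 CPM in KRAB 2C, against 11.8, 438 and 553 CPM in Ctrl 2C (-1.99 ± 0.74, adjusted p = 0.2407), and it was the Ctrl 2C replicates 1, 3, 5 and 7 that lay above all KRAB libraries. Next by p were Med24 (-1.39 ± 0.52), Med1 (-1.04 ± 0.39) and Med30 (1.46 ± 0.63). Against NI, KRAB had 0 calls in 96 members and 0% of all genes, with 4 members at an unadjusted p under 0.05, beside 3.12% of all genes. Without overlap of libraries were 2 members, beside 0.61% of all genes. Polr2a was at 2.5, 5.48 and 10.6 CPM in KRAB 2C, against 20.3, 10.8, 23 and 14.9 CPM in NI 2C (-1.60 ± 0.66, adjusted p = 0.9985). Polr2c was at 963, 1104 and 2299.9 CPM in KRAB 2C, against 183, 701, 766 and 475 CPM in NI 2C (1.39 ± 0.62). DESeq2 called no member in that comparison. The other members with the smallest p were Med13l, Polr3d and Taf12.

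Ctrl against NI at 2C likewise had 0 members and 0% of all genes called by edgeR, but 23 members at an unadjusted p under 0.05, beside 23.4% of all genes. DESeq2 called 6, beside 7.78% of all genes, with Med17, Polr2c and Taf9b higher and Med13l, Taf1d and Med9os lower in Ctrl. Without Ctrl 2C replicate 6 edgeR called 10, beside 11.6% of all genes. These were Taf9b, higher, and Med13l, Med21, Med31, Taf1d, Polr2f, Polr2i, Polr2j, Polr2k and Polr2l, lower. Med13l was at 20.3, 34.2 and 40.2 CPM in Ctrl 2C, against 141, 26.9, 161 and 56.1 CPM in NI 2C (-1.85 ± 0.46, adjusted p = 0.1212).

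The part of library depth in these values was not tested beyond leaving libraries out. The shallow libraries under 2000000 counts were 2 of 6 in KRAB 2C, 2 of 7 in Ctrl 2C and 2 of 4 in NI 2C. With all such libraries left out, an alternative added after the data had been seen, 25 members were called between KRAB and Ctrl at 2C, 17 higher and 8 lower in KRAB. Of all genes 16.2% were then called, 6.88% higher and 9.33% lower. The higher ones held the 5 shared polymerase subunits, namely Polr2e (1.82), Polr2f (2.20), Polr2h (2.83), Polr2k (3.29) and Polr2l (2.83), as log2 fold changes. The lower ones held Med1, Med15, Med17, Med24 and Taf9b. The same subset of libraries called 18 members between 8C and 2C in NI, beside 35.6% of all genes.

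Polr2l is an example. It was at 226, 447 and 1114 CPM in KRAB 2C, against 59.6, 134 and 1187 CPM in Ctrl 2C, where the library at 1187 CPM was replicate 6, the shallowest. In KRAB 2C the lowest value, 226 CPM, was in replicate 4, also a shallow library (1382495 counts). With all libraries the ranges overlapped and the log2 fold change was 1.07 ± 0.85 (adjusted p = 0.5152). Polr2k was at 29.7, 39.9 and 264 CPM in KRAB 2C, against 3.71, 29 and 119.7 CPM in Ctrl 2C (1.62 ± 0.85, adjusted p = 0.3512). In both genes replicates 1, 5 and 7 of Ctrl 2C were the lowest, and in Taf9b the same 3 were high.

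**Figure D4:**
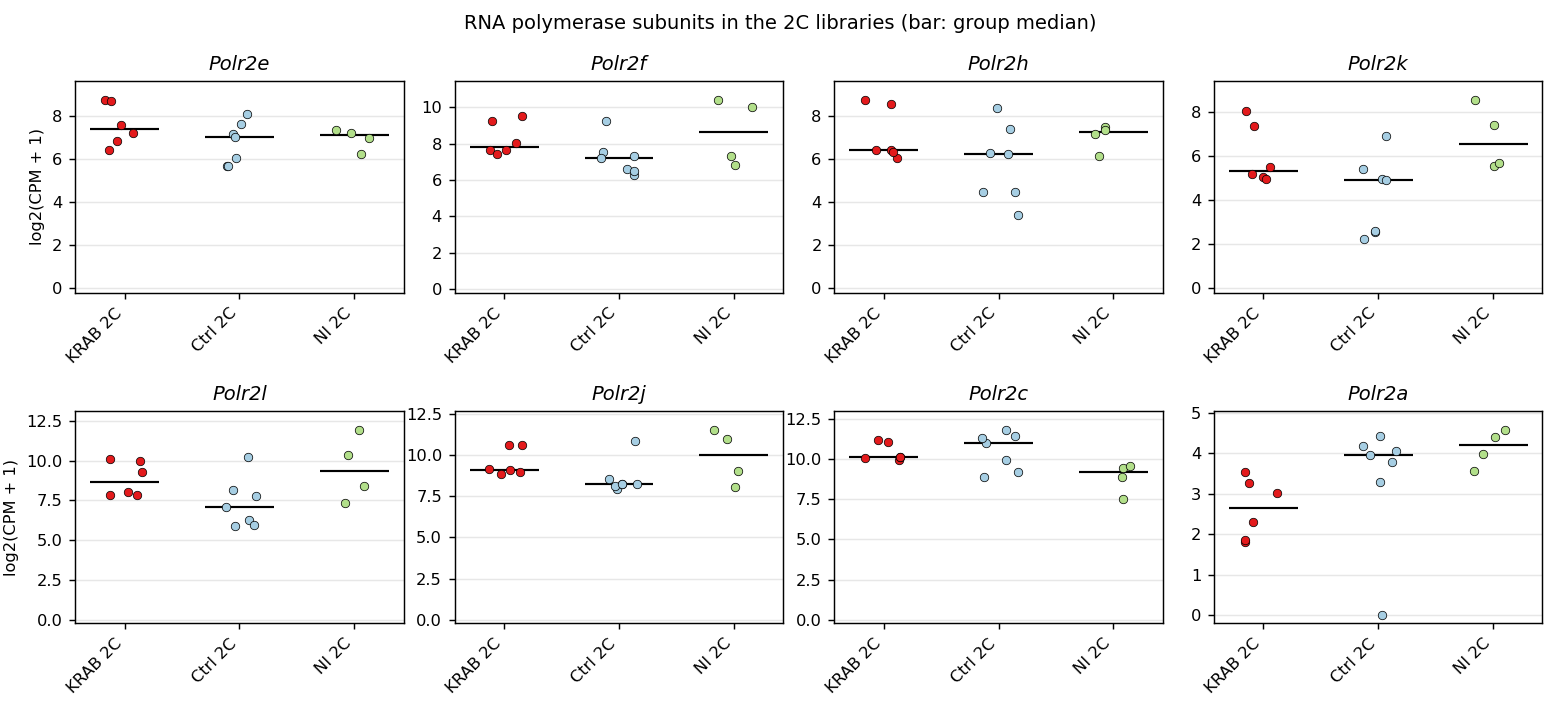
Levels of 8 polymerase subunit genes, as log2 of CPM plus 1, in KRAB 2C, Ctrl 2C and NI 2C, each point a library and each bar the group median. Polr2l spans 226 to 1114 CPM in KRAB, 59.6 to 1187 CPM in Ctrl and 158 to 3869 CPM in NI.

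For KRAB over Ctrl and Ctrl over NI at 2C, log2 fold changes varied with gene length within the polymerase subunits. The relation was examined after the values were seen and is given as a description. Over the 27 subunits, the correlation of the KRAB over Ctrl log2 fold change with log10 exonic length was r = -0.812 (rho = -0.746), against -0.271 over all genes with a length. For Ctrl over NI it was r = 0.54 (rho = 0.478), against 0.149, and these comparisons share the Ctrl libraries. It was 0.0333 for KRAB over NI, -0.518 for 8C over 2C in Ctrl and 0.0114 for 8C over 2C in NI. At 8C it was -0.358 for VP64 over Ctrl, -0.398 for VP64 over NI and -0.0866 for Ctrl over NI, and for the interaction -0.536. Over the 69 other members tested at 2C it was -0.334 for KRAB over Ctrl and 0.079 for Ctrl over NI. Genes of a library share its depth and RNA quality and are not independent.

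**Figure D5:**
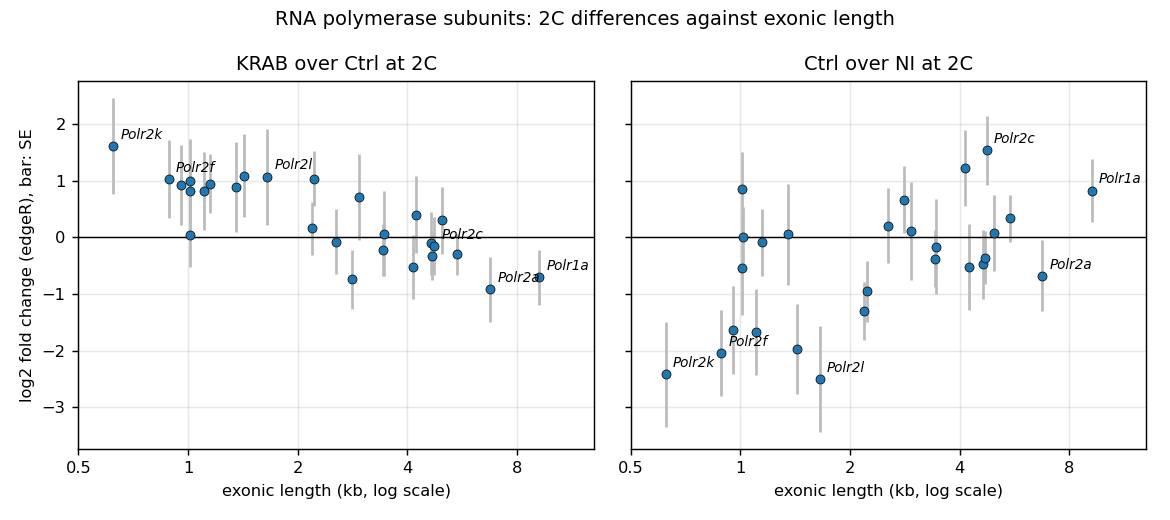
Log2 fold change of the 27 polymerase subunit genes against exonic length (log axis) at 2C, for KRAB over Ctrl (left) and Ctrl over NI (right), with bars of 1 SE. Short genes such as Polr2l lie high on the left (1.07) and low on the right (-2.50); the other 7 comparisons are not drawn.

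At 8C, no member of 92 tested was called between VP64 and Ctrl, VP64 and NI, or Ctrl and NI, and 0% of all 9850 genes were. At an unadjusted p under 0.05 there were 2 members for VP64 over Ctrl, beside 3.99% of all genes, 4 for VP64 over NI, beside 7.17%, and 2 for Ctrl over NI, beside 4.36%. DESeq2 also called no member in these comparisons. The median SE of a member's log2 fold change was 0.416 for VP64 over Ctrl, 0.414 for VP64 over NI and 0.432 for Ctrl over NI. The genes below are given with their own SE. None of them was called, so these libraries leave differences of such size undecided.

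Taf4b was at 14.1, 21.4 and 25.5 CPM in VP64 8C, against 13.5, 30.1 and 61.6 CPM in Ctrl 8C (-0.77 ± 0.33, adjusted p = 0.9993). The VP64 libraries lay within the Ctrl range. Med23, of the tail, had the smallest p for VP64 over NI (-1.11 ± 0.40, adjusted p = 0.6227), and Med16 stood at 1.81 ± 0.69. Next by p were Polr2b, Med12l and Polr1a for VP64 over Ctrl, and Med13l, Polr1a and Polr2b for VP64 over NI. Polr3k, a small polymerase III subunit, led Ctrl over NI at 2.00 ± 0.82 (adjusted p = 1), with 64.4, 198 and 3690.4 CPM in Ctrl 8C, against 88.7, 146 and 372 CPM in NI 8C, a range set by its highest library, and without Ctrl 8C replicate 6 it was at -0.24. Of the genes that were separate by stage in NI, Taf3 was at 20.3, 30.4 and 57.5 CPM in VP64 8C, Taf4a at 2.4, 4.2 and 7.02 CPM and Gtf2a1 at 44.7, 113 and 162 CPM. These VP64 values overlapped those of Ctrl 8C and NI 8C.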

How the data were processed

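RNA was measured in 36 libraries, each made from a pool of embryos. The deposited table lists, for each symbol, expected counts from the authors' RSEM run. The submitters' processing notes list Bowtie2 and RSEM as tools and mm10 as the build, with no version. Of the values, 9.85% were not whole. These estimated counts, as deposited, were rounded. Reads that RSEM shares between similar genes by estimation make the levels of genes with near-identical or overlapping copies uncertain, and the counting is not stated to use strand.

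Tests were run in R 4.3.3 with edgeR 4.0.16 and limma 3.58.1, using TMM scaling, filterByExpr (minimum count 10, total 15), a robust quasi-likelihood fit and Benjamini-Hochberg adjustment at 0.05. Stage and interaction tests were fitted on all 36 libraries, and tests within a stage on its 17 (2C) or 19 (8C). The fit was tested on simulated data. CPM uses TMM-scaled totals. Bounds take 3 counts over a group as the floor, and intervals and floors cover counting error only. Gene lengths and overlaps come from GENCODE vM21 and promoters from RefSeq (GRCm38.p6). DESeq2 1.42.0, its size factors in edgeR, no filter, fits on the compared groups alone, other pseudocounts and leaving out each library were tried as alternatives, with a pair of library subsets added after the data were seen.

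The genes described are the largest polymerase subunits, Tbp, both genes of each related pair and, per complex and direction, up to 3 called genes with a group mean of at least 10 CPM, by size of change; where fewer than 5 members were called, those and the 5 with the smallest p. Other genes were picked after their values were seen. The members and lists were chosen with earlier results of these data known.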

Additional observations from a re-analysis of the deposited data

Results flagged for a closer look

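Among the genes described, 143 groups of 4, 6 or 7 libraries were searched for a library far from all others, by Dixon's test at the 95% level, and 22 had one; chance flags about 1 in 20. Values are CPM unless stated, and the causes were not tested.

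Polymerase genes held several. Polr1a was at 92.3 in NI 8C replicate 3 (others 10.4 to 21.8), 56.5 in Ctrl 8C replicate 5 (others 16.7 to 28.9), 25.5 in VP64 8C replicate 2 (others 10.48 to 15.03) and 44.4 in Ctrl 2C replicate 2 (others 9.13 to 15.8), so each of those groups had a single high library. Polr2a was at 26.9 in NI 8C replicate 1 (others 9.47 to 15.7) and 43.4 in VP64 8C replicate 5 (others 1.498 to 14.4). Polr3g was at 209 in NI 8C replicate 3 (others 67.5 to 107) and 139 in VP64 8C replicate 7 (others 35.2 to 79.9). Polr3gl was at 32.2 in KRAB 2C replicate 1 (others 1.95 to 6.62) and 29.95 in VP64 8C replicate 6 (others 3.54 to 11.9).

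TAF genes held most of the rest. VP64 8C replicate 7 stood apart in Taf6, at 4.19 (others 61.7 to 99.7), in Taf7, at 293 (others 84.6 to 159.9), and in Taf9, at 1451 (others 465 to 758). Taf4b was at 206 in Ctrl 2C replicate 2 (others 9.47 to 88.8), Taf5 at 30.9 in Ctrl 8C replicate 6 (others 1.69 to 6.72) and Taf9b at 2.91 in Ctrl 8C replicate 3 (others 0 to 1.01). Taf6l was at 35.7 in KRAB 2C replicate 1 (others 6.64 to 16.8). Taf7 was at 385 in Ctrl 2C replicate 6 (others 138 to 224) and Taf7l at 9.82 in Ctrl 2C replicate 4 (others 0 to 4.22).

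Gtf2a1 was at 322 in NI 8C replicate 1 (others 82.7 to 156), the library that brought the stages nearest each other in NI. Med13l was at 9.36 in VP64 8C replicate 1 (others 14.98 to 19.02). The 97 genes together took 1.76% of the counts in NI 2C replicate 1, against 1.37% to 1.40% in the other NI 2C libraries.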

How the results depend on the processing

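No paired analysis was possible because the labels give no replicate numbers, so numbers follow accession order and pair nothing. For 8C over 2C, NI gave 34, 33, 37 and 30 members called and Ctrl 41, 36, 42 and 33 with DESeq2's size factors in edgeR, no low-count filter, DESeq2, or only the compared groups in the fit, against 35 and 42. Leaving out 1 library gave 28 to 38 in NI and 38 to 46 in Ctrl. Leaving out the shallow libraries (under 2000000 counts), added after the data were seen, gave 18 in NI, 14 of them among the 35, and 49 in Ctrl. The interaction gave 4 with DESeq2, 0 to 8 with 1 library left out and 3 with both least correlated libraries left out (Ctrl 2C and Ctrl 8C replicate 6). KRAB over Ctrl gave 1 with DESeq2 and 25 without the shallow libraries. Ctrl over NI at 2C gave 6 with DESeq2, 0 to 10 with 1 library left out and 10 with both least correlated left out. KRAB over Ctrl and the remaining comparisons between treatments gave 0 with each library left out in turn. Related pairs called were 0 to 3 in NI and 2 to 5 in Ctrl with 1 library left out; without an NI 2C library the exact test could not reach a call for the NI pairs. Of 66 calls of named genes, 39 held under every alternative run, 27 were lost under at least 1 and 0 reversed; the causes were not tested. Depth limits genes of a few CPM in the shallow libraries.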

Other observations

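The VP64 libraries took part in no stage comparison. Taf9b was at 0, 1.5 and 3.33 CPM in VP64 8C (lowest, median and highest), Med13 at 7.84, 13.8 and 19.8 CPM and Med15 at 8.99, 12.3 and 17.9 CPM. In KRAB 2C, likewise outside those comparisons, Taf9b was at 16.7, 55.7 and 122 CPM, Med13 at 38.3, 54.2 and 57.9 CPM and Med15 at 43.6, 70.1 and 109 CPM. For these 3 genes no VP64 8C library reached any KRAB 2C library, a difference that was not tested, since treatment and stage cannot be told apart between those groups.

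Polr2e was at 298, 425 and 709 CPM in VP64 8C and at 82.7, 166 and 422 CPM in KRAB 2C, which overlapped.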
